A study of Glycine max with 4 samples.

Results

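The drought response of leaves of PI 567690, a soybean (Glycine max) line labelled drought tolerant, was described gene model by gene model. The members were all gene models with at least 1 FPKM in at least 3 of the 6 PI 567690 libraries, which was met by 30914 of the 54175 gene models in the table. FPKM is the number of sequenced fragments corrected for how long a gene model is and for all mapped fragments of the library, a level that can be compared between genes of different length. The members closest to the limit were Glyma18g07345, whose third-highest value was 1.0001 FPKM, and, just outside, Glyma05g08550 at 0.9996 FPKM. Within 0.1 FPKM of the limit lay 561 gene models inside and 573 outside.

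Control plants of PI 567690 (3 libraries) were kept under the control condition, and drought plants (3 libraries) were water-stressed for 15 days from the V5 vegetative stage. Leaves were collected at the R2 reproductive stage, from plants in pots of soil and sand. The series also holds Pana, a line labelled drought susceptible, under the same control (3 libraries) and drought (3 libraries) conditions. Each group is 1 sample of the labels with 3 numbered columns, which the study calls biological replicates. Which plants, and how many, went into a column is not named, and the p-values therefore speak only for the spread among the columns. The labels give no genotype beyond the names of the lines. In bulk leaf RNA, fewer cells of a type and less RNA per cell cannot be told apart.

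Soybean leaves that lose water are known to close their stomata, to make the hormone abscisic acid and to raise transcripts of protective proteins, while growth and photosynthesis genes are lowered. Canopy wilting, the trait in the title of the series, is the drooping of leaves as the soil dries, and lines that wilt slowly are used in breeding for dry conditions. None of the 54175 identifiers (0 matched) was found in the RefSeq name table used here. The gene models therefore appear by identifier, with no gene name, function or sequence, and the leaf label was not checked against marker genes. By the convention of soybean identifiers, the digits before the letter g give the chromosome and those after it rise along the chromosome.

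The 6 libraries differed in how closely they agreed. Drought libraries 2 and 3 were nearly identical (r = 0.993 across members): by gene models grouped into 4 classes of read number, the median chi-square between them was 1.09 to 2.23 times what counting noise alone gives. For pairs of control libraries this ratio was 1.59 to 35.48, and for drought library 1 with either of the others 5.28 to 73.22. They entered the test as their mean, as 1 library. Drought library 1 was the shallowest of the 6 by the size of 1 read, at 48.3% of the deepest library of the series. It also stood apart in the expression levels of line-marking gene models. Line-marking gene models were those whose levels separated the lines by at least 2-fold in every library but the one judged. Of these it had 63 of 99 (63.6%) at the level of PI 567690 and 12 (12.1%) at that of Pana. The other 5 libraries had 82.9% to 98.6% at the level of PI 567690. The part of these features in the results was not tested.

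Levels differed between drought and control in 12290 of the 30914 gene models, or 39.8% (limma on log2(FPKM + 1), adjusted p under 0.05). Of these, 7781 (25.2%) rose, with a median log2 change of 0.92, and 4509 (14.6%) fell, with a median log2 change of -1.24. Falls were thus fewer and larger at the median. At least 4-fold changes were called in 806 rising and 923 falling gene models, and at least 32-fold changes in 28 and 28. All 3 drought libraries lay above all 3 control libraries in 13327 gene models (43.1%) and below them in 6760 (21.9%). Of the 12290 calls, 12275 had no such overlap.

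The balance between rises and falls depended on the scale and on the fit. The median log2 change over all members was 0.25 as deposited and 0.02 after each library was scaled to an equal median ratio. Scaling gave 4919 rises and 5738 falls, a share of rises of 46.2%, where the unscaled share was 63.3%. Call and direction were kept by 9411 of the 12290 gene models. The number of calls fell to 7401, 5529 and 4746 without control library 1, 2 or 3. With the wider spread of the Pana libraries in the same fit, 2314 gene models were called, 931 higher and 1383 lower, so that falls outnumbered rises. With the 12 libraries entered separately it was 2105 and 2118. The median SD of a member on the log2 scale was 0.138 in PI 567690 control against 0.427 and 0.422 in Pana control and drought (n = 3 each).

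The called gene models changed in the same direction in drought library 1 as in libraries 2 and 3, and mostly farther in library 1. Relative to the control mean, the rising gene models had a median log2 change of 1.1 in library 1 and 0.73 in the mean of libraries 2 and 3. The falling ones had -1.45 and -1.01. Library 1 showed the larger change in 6635 of 7781 rises (85.3%) and in 3769 of 4509 falls (83.6%), and no called gene model (0) went in opposite directions. These comparisons are descriptions, because the calls were made from these libraries and favour changes of the same direction. They were made on the values as deposited, without scaling. On these, the median log2 change of all members was 0.32 in library 1 and 0.16 in the mean of libraries 2 and 3. Over all members, called or not, 2137 were at least 2-fold higher in both and 2170 at least 2-fold lower in both, while 23 were at least 2-fold apart from control in opposite directions. The median distance of a member from the control mean was 0.652 in library 1, 0.399 in library 2 and 0.402 in library 3 on the log2 scale, against 0.078 to 0.115 in the control libraries. Without library 1, 8624 gene models were called, 5087 higher and 3537 lower, with the single drought library left assumed to vary like the controls.

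**Figure D1:**
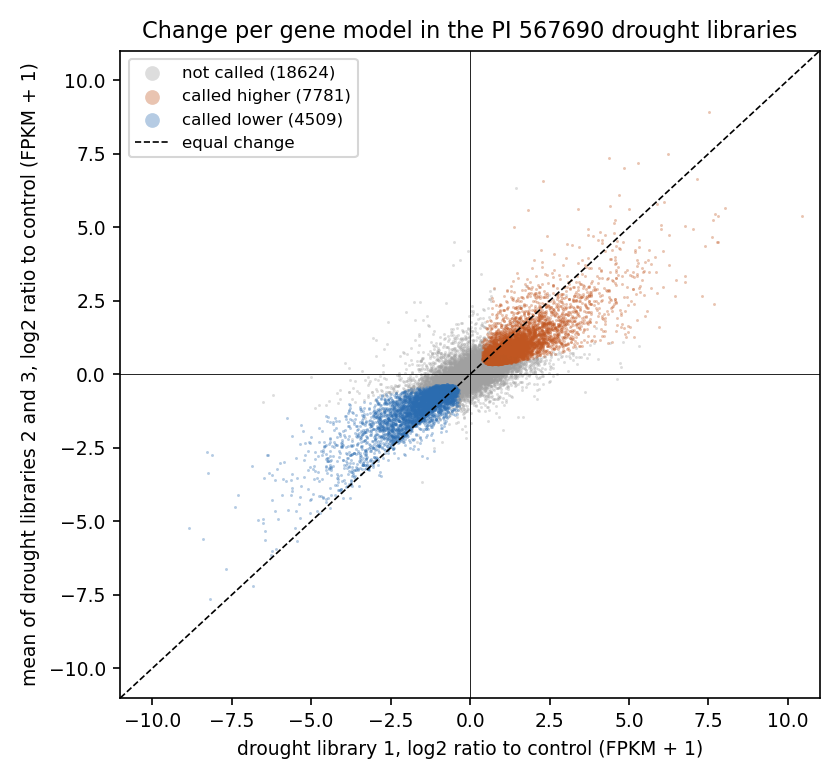
Each point is 1 of 30914 gene models. The x axis is the log2 ratio of drought library 1 to the control mean and the y axis that of the mean of drought libraries 2 and 3, both on FPKM + 1; orange points were called higher (7781), blue points lower (4509) and grey points were not called. Most coloured points lie between the x axis and the dashed line of equal change, on the side where library 1 moved farther.

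As called within PI 567690, falls took their highest share among the most abundant transcripts. This depended on the libraries in the fit and on the filter. Of the 70 gene models with a mean of at least 1000 FPKM over the 6 libraries, 44 fell (62.9%) and 13 rose (18.6%), beside 14.6% and 25.2% of all members. At 100 to 1000 FPKM, 199 of 815 fell (24.4%) and 198 rose (24.3%). Rises were most frequent at 20 to 50 FPKM, where 1129 of 3604 rose (31.3%) and 476 fell (13.2%). Below 2 FPKM, 788 of 4594 rose (17.2%) and 882 fell (19.2%). After scaling, 41 of the 70 most abundant fell (58.6%) and 10 rose (14.3%). Without drought library 1, 46 of the 70 fell and 14 rose. Without control library 1, 2 or 3, falls numbered 20, 15 and 9 and rises 10, 11 and 8. With no filter on low values, 9 of the 70 were called lower and 8 higher. In the fit with Pana few of the 70 were still called, 1 lower and 3 higher. It was 2 lower and 8 higher where the 12 libraries were entered separately. At 20 to 50 FPKM, scaling within PI 567690 gave rises in 20.1% and falls in 17.8%.

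**Figure D2:**
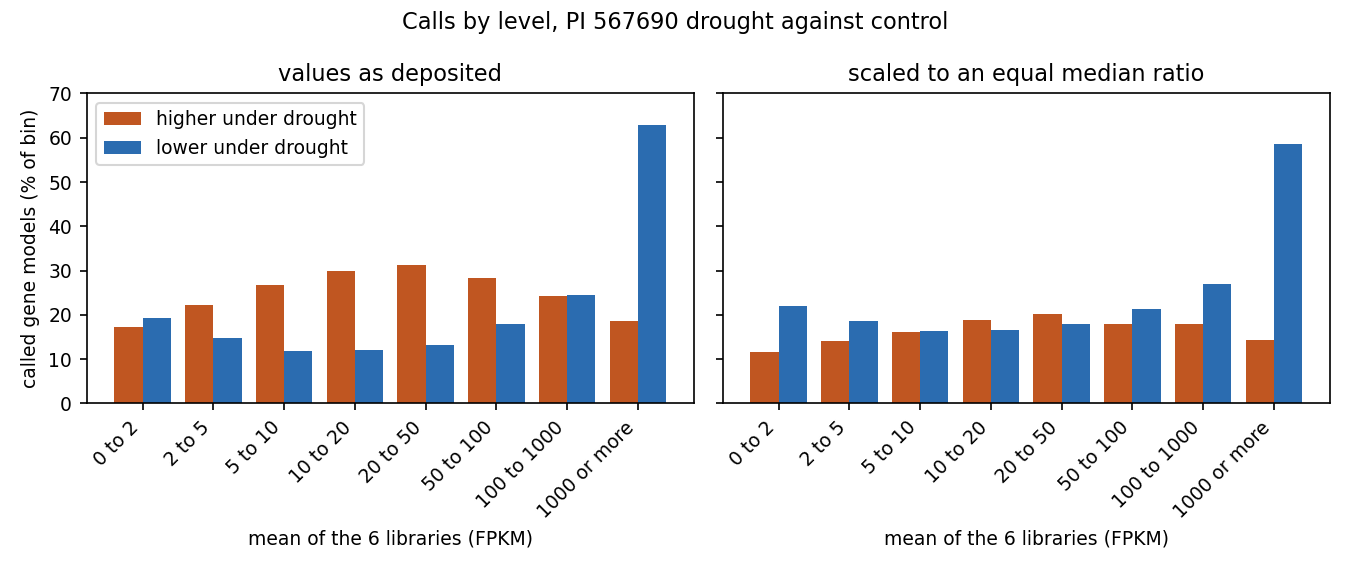
Bars give the share of gene models called higher (orange) or lower (blue) under drought, in percent of each bin of the mean FPKM over the 6 PI 567690 libraries, as deposited on the left and after scaling on the right. Falls reach 62.9% and 58.6% in the bin of at least 1000 FPKM, the highest share of either direction in each panel. In the fit with Pana, which is not drawn, 1 of these 70 was called lower and 3 higher.

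Transcripts that fell made up 44.5%, 45% and 46.5% of all FPKM in the 3 control libraries. Their share was 9.2% in drought library 1 and 17.6% in each of libraries 2 and 3. Transcripts that rose went from 12.5%, 12.4% and 11.7% to 43.7%, 37.1% and 36.9%. The gene models that were not called held 41.2% to 46.1% in every library. These shares restate the calls in the unit of the library and are no separate test. The 100 gene models with the highest control mean held 32.6% to 34.1% of all FPKM in the controls, 9.7% in drought library 1 and 17.7% and 17.6% in libraries 2 and 3. Of these 100, 78 fell and 3 rose, and 54 were also among the 100 highest under drought. A ranking by control level favours falls. Ranked by drought mean instead, 36 of the 100 highest rose and 34 fell, and they held 26.2% to 27% of all FPKM in the controls, 19% in drought library 1 and 26.9% and 26.5% in libraries 2 and 3. Of the 100 ranked by control mean, only 40, 30 or 21 were called lower without control library 1, 2 or 3. With no filter on low values 28 of them were called lower, and in the fit with Pana 1.

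**Figure D3:**
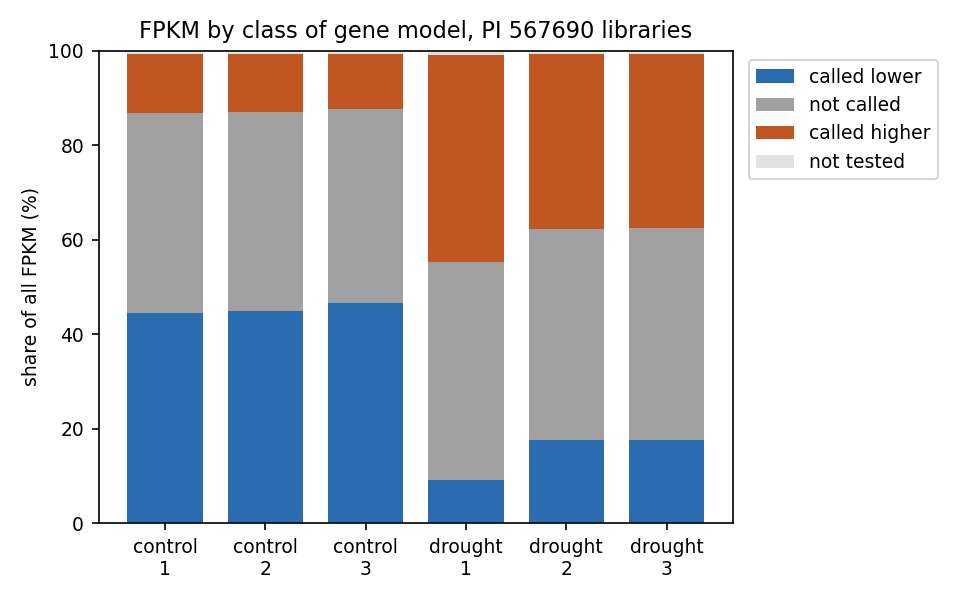
Stacked bars give the share of all FPKM, in percent, of gene models that fell (blue), were not called (grey), rose (orange) or were not tested (pale) in each of the 6 PI 567690 libraries. The blue share is 44.5% to 46.5% in the controls and 9.2% to 17.6% under drought.

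The largest losses in FPKM were those of Glyma19g06370 and Glyma19g06340, close neighbours by identifier on chromosome 19. Glyma19g06370 was the most abundant transcript of the controls, at 19715, 20030 and 21178 FPKM, and stood at 1929, 6561 and 6306 FPKM under drought (log2 change -2.53 ± 0.64 SE, limma adjusted p = 0.0257). Glyma19g06340 went from 16440, 16630 and 17559 FPKM to 1726, 5554 and 5371 FPKM (log2 change -2.46 ± 0.61 SE, adjusted p = 0.0245). In both, every drought library was below every control library, as the selection of named gene models required, and library 1 was the lowest. Their values ran in parallel. If they are near-identical copies, reads could have been shared between them by the authors' software, which was not tested, as no sequence was at hand. The call of Glyma19g06370 was lost after scaling (adjusted p = 0.054) and that of Glyma19g06340 was kept (adjusted p = 0.0495). Without control library 1, 2 or 3 the adjusted p was 0.0703, 0.082 and 0.0973 for the former and 0.0679, 0.0791 and 0.0938 for the latter. Both calls were also lost in the fit with Pana (adjusted p = 0.201 and 0.197) and with no filter on low values (adjusted p = 0.468 and 0.422).

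The largest gains in FPKM were those of Glyma07g01730 and Glyma11g21616. Glyma07g01730 went from 275, 732 and 658 FPKM to 5345, 25195 and 25169 FPKM and was the most abundant transcript of drought libraries 2 and 3 (log2 change 4.51 ± 0.76 SE, adjusted p = 0.00818). Glyma11g21616 went from 2252, 1618 and 1512 FPKM to 7914, 14254 and 13520 FPKM (log2 change 2.57 ± 0.43 SE, adjusted p = 0.00819). In both, the groups did not overlap, which their selection required. Drought library 1 showed the smaller rise, against the tendency of the rising gene models as a whole. The call of Glyma11g21616 was lost without control library 3 (adjusted p = 0.0558). In the fit with Pana, both were lost (adjusted p = 0.0778 for Glyma07g01730 and 0.0731 for Glyma11g21616).

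The largest log2 rises were those of Glyma20g34670 and Glyma09g31740. Control levels of Glyma20g34670 were 18, 27.3 and 14.6 FPKM, and drought levels 3689, 10204 and 9605 FPKM (log2 change 8.22 ± 0.46 SE, adjusted p = 0.00069). Its control mean of 19.97 FPKM was above the median level of the members, 6.44 FPKM, and its drought libraries lay far above every control library. The largest falls were those of Glyma17g32100, from 733, 785 and 651 FPKM to 1.46, 2.61 and 2.6 FPKM (log2 change -7.92 ± 0.22 SE, adjusted p = 0.000296), and of Glyma17g37900. The latter went from 371, 354 and 296 FPKM to 0.653, 2.42 and 2.47 FPKM (log2 change -7.15 ± 0.32 SE, adjusted p = 0.000447). All 3 drought libraries were close to one another in both falls on the FPKM scale, and far below the controls.

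Glyma12g34570, Glyma05g03080 and Glyma08g08761 shared the lowest adjusted p with Glyma17g32100. Glyma12g34570 rose from 30.6, 28.9 and 36.5 FPKM to 1916, 1795 and 1807 FPKM (log2 change 5.82 ± 0.19 SE, adjusted p = 0.000296). Glyma05g03080 rose from 1.95, 2.16 and 1.67 FPKM to 70.7, 65.4 and 67.9 FPKM (log2 change 4.58 ± 0.15 SE, adjusted p = 0.000296). Glyma08g08761 fell from 181, 282 and 220 FPKM to 0.979, 0.561 and 0.484 FPKM (log2 change -7.02 ± 0.23 SE, adjusted p = 0.000296). In the rises library 1 differed from the mean of the others by 0.09 and 0.08 on the log2 scale. In the fall of Glyma08g08761 library 1 was 0.38 above the others. Each of the 3 kept its call under every alternative run for it.

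**Figure D4:**
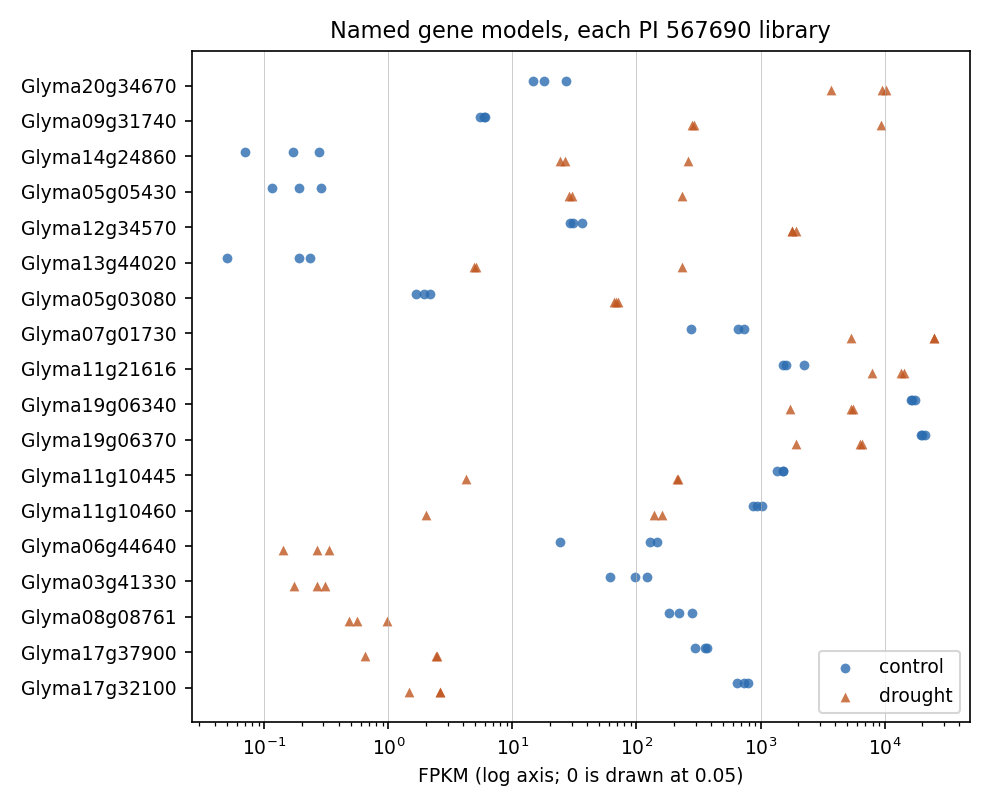
Points give the FPKM of each named gene model (y axis) in each PI 567690 control (blue circles) and drought (orange triangles) library on a log axis, with 0 drawn at 0.05. Gene models are ordered by log2 change. No control and drought points of a gene model overlap, as the selection required. The drought points of Glyma09g31740, Glyma13g44020, Glyma11g10445 and Glyma11g10460 lie far apart from one another.

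Transcripts that were near absent in one treatment formed a small group. With no more than 0.5 FPKM in every control library and at least 5 FPKM in every drought library, 48 gene models appeared under drought, at a median of 15.6 FPKM. In the other direction 66 gene models disappeared, from a median of 12.2 FPKM in the controls. The limits are close to those of a call, and all 48 and 66 were called. The 66 were also all called lower in the fit with Pana and without any 1 library of PI 567690, while 29 of the 48 were called higher in the fit with Pana. Of the 48, 43 were higher in drought library 1 than in the mean of the others, and of the 66, 56 fell farther in it.

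Glyma14g24860 reached the highest mean of those that appeared. Its control levels were 0.17, 0.278 and 0.0698 FPKM and its drought levels 262, 24.2 and 26.4 FPKM (log2 change 6.15 ± 0.87 SE, adjusted p = 0.00527). Glyma05g05430 went from 0.287, 0.116 and 0.189 FPKM to 235, 28.6 and 30.4 FPKM (log2 change 6.15 ± 0.78 SE, adjusted p = 0.00395). Drought library 1 was the high one in both. Glyma06g44640 disappeared from 24.3, 147 and 130 FPKM to 0.143, 0.332 and 0.264 FPKM (log2 change -6.02 ± 0.75 SE, adjusted p = 0.0038), with control library 1 the low one. Glyma03g41330 went from 60.8, 122 and 97.4 FPKM to 0.172, 0.308 and 0.266 FPKM (log2 change -6.21 ± 0.3 SE, adjusted p = 0.000506). The calls of Glyma14g24860 and Glyma05g05430 were lost in the fit with Pana (adjusted p = 0.0654 and 0.0615).

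Other changes were far larger in drought library 1 than in libraries 2 and 3. Control levels of Glyma09g31740 were 5.89, 5.44 and 6.04 FPKM, and drought levels 9391, 282 and 288 FPKM (log2 change 7.92 ± 1.31 SE, adjusted p = 0.00787). In library 1 it was the most abundant transcript. Glyma13g44020 went from 0, 0.233 and 0.19 FPKM to 232, 4.93 and 5.05 FPKM (log2 change 5.04 ± 1.37 SE, adjusted p = 0.0313). On the side of the falls, Glyma11g10460 went from 934, 1020 and 877 FPKM to 2.01, 161 and 139 FPKM (log2 change -5.47 ± 1.47 SE, adjusted p = 0.0302). Its neighbour by identifier, Glyma11g10445, went from 1506, 1506 and 1354 FPKM to 4.19, 211 and 216 FPKM (log2 change -5.45 ± 1.4 SE, adjusted p = 0.0266). Library 1 differed from the mean of libraries 2 and 3 by 5.04 and 5.28 on the log2 scale in these rises and by -5.65 and -5.37 in these falls, and the SEs were the widest among the named gene models. Libraries 2 and 3 lay on the same side of the controls as library 1, which the selection of the named gene models required. Without library 1 the log2 change was still 5.4 for Glyma09g31740 and 2.4 for Glyma13g44020. It was -2.64 for Glyma11g10460 and -2.76 for Glyma11g10445.

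All 4 of these calls were lost in the fit with Pana, where the adjusted p was 0.063 for Glyma09g31740, 0.148 for Glyma13g44020, 0.128 for Glyma11g10460 and 0.13 for Glyma11g10445. Leaving out a control library ended the last 3. Without control library 1, 2 or 3 the adjusted p was 0.0858, 0.0718 and 0.0852 for Glyma13g44020 and 0.0802, 0.0732 and 0.0825 for Glyma11g10460. For Glyma11g10445 it was 0.0742, 0.0659 and 0.076. Over all members, 987 were at least 2-fold higher in library 1 while libraries 2 and 3 stayed within 0.5 of control on the log2 scale, and 592 were at least 2-fold lower. The reverse was seen in 127 and 59 gene models.

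Against these changes, 2464 members (7.97%) had a 95% interval of the log2 change wholly within 0.5 of 0. Only 19 of them were among the 885 gene models whose mean level was 100 FPKM or more. The narrowest intervals among these 19, picked after their values were seen, were those of Glyma07g05530 and Glyma15g09350. Glyma07g05530 stood at 123, 124 and 124 FPKM in the controls and 127, 136 and 135 FPKM under drought (log2 change 0.09, interval -0.3 to 0.48). Glyma15g09350 stood at 118, 109 and 119 FPKM and 113, 103 and 113 FPKM (log2 change -0.06, interval -0.45 to 0.33). Scaling moved these changes to -0.18 and -0.33.

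The response was spread over all chromosomes. Rises made up 22.4% (chromosome 17) to 28% (chromosome 7) of the tested gene models of a chromosome, and falls 12.8% (chromosome 20) to 16.9% (chromosome 12), beside 25.2% and 14.6% of all members. Neighbours shared a direction somewhat more often than these backgrounds. Of the falling gene models, 20.2% were followed by a tested neighbour that also fell, and of the rising ones 29% by a neighbour that also rose. Without drought library 1 these shares were 15.6% and 20.5%, beside 11.4% and 16.5% of all members called lower and higher. Among at least 4-fold changes the shares were 7.1% for falls, beside 2.99% of tested gene models, and 7.3% for rises, beside 2.61%. Runs of 5 or more tested neighbours numbered 47 for rises, the longest of 8, and 17 for falls, the longest of 30.

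The run of 30 falling neighbours reached from Glyma06g43120 to Glyma06g43600 on chromosome 6. Between these ends lay 47 gene models of the table, so that 17 did not reach the level for a test. Summed over the 30, the FPKM was 260, 237 and 328 in the controls and 52.8, 97 and 103 under drought. All 30 were lower in every drought library than in any control library, and the median log2 change was -1.87. The largest change was that of Glyma06g43450, from 18, 16.4 and 21.2 FPKM to 0, 3.19 and 2.75 FPKM. Glyma06g43590 and Glyma06g43600, the last in the run and the most abundant, changed the least. They went from control means of 49.4 and 40.8 FPKM to drought means of 35.6 and 23.9 FPKM, and held most of the summed FPKM under drought. The members of the run were also called after scaling (30 of 30), and 21 of 30 without drought library 1. In the fit with Pana 22 of 30 were called. Without control library 1, 2 or 3 it was 23, 27 and 24 of 30.

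The next longest runs of falls lay on chromosomes 12 and 9. From Glyma12g03810 to Glyma12g03971, 14 tested neighbours fell, from summed levels of 188, 191 and 169 FPKM to 1.5, 21.2 and 16.9 FPKM. Its most abundant member, Glyma12g03930, went from 60, 61 and 50.1 FPKM to 0, 7.02 and 5.5 FPKM. From Glyma09g35510 to Glyma09g35590, all 9 gene models of the table were tested and all fell by at least 4-fold, from sums of 199, 194 and 184 FPKM to 2.7, 17.1 and 15 FPKM. Its most abundant member, Glyma09g35550, went from 69.5, 59.9 and 55.3 FPKM to 1.25, 6.25 and 4.23 FPKM. In both runs drought library 1 was the lowest in sum. All 9 of the latter and 13 of the former were called without drought library 1. The runs were picked for their calls, so their counts are descriptions. Reads of near-identical copies may have been shared between neighbours, in which case neighbours are not independent. Whether the neighbours are such copies was not tested.

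**Figure D5:**
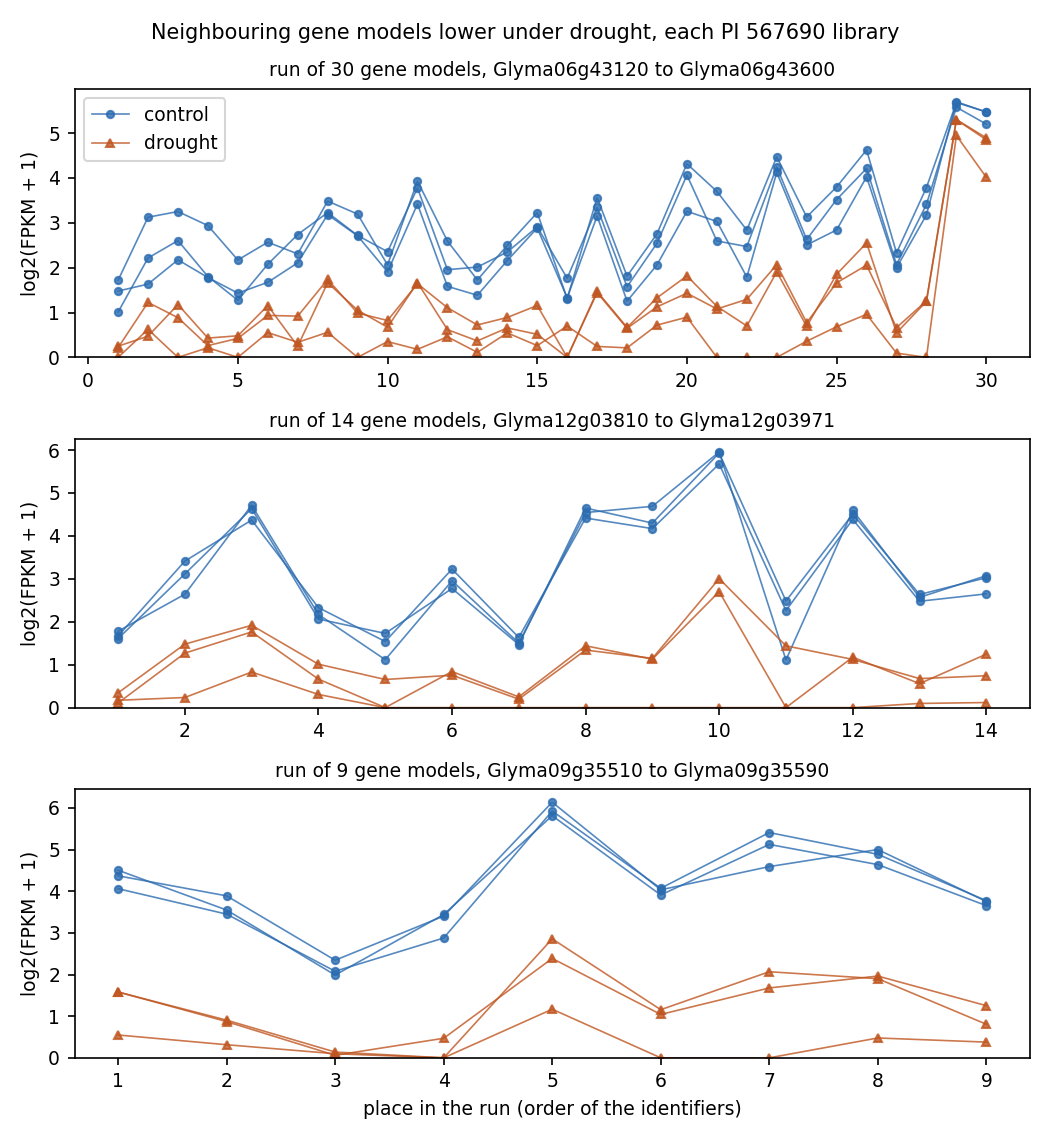
Lines give log2(FPKM + 1) of each gene model in the 3 longest runs of falling neighbours, in the order of their identifiers, for each PI 567690 control (blue circles) and drought (orange triangles) library. The drought lines lie below the control lines along each run, apart from 1 gene model in the run of 14, and the lowest drought line is library 1 at nearly every place.

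The levels of the same runs in the Pana libraries are given for comparison. Summed over the run of 30, Pana controls held 94.4, 83.5 and 78.3 FPKM and Pana drought libraries 98.9, 143 and 140 FPKM. Glyma06g43590 and Glyma06g43600 held most of the sum in Pana controls 2 and 3. In the 3 Pana controls Glyma06g43590 stood at 26.1, 43.9 and 37.1 FPKM and Glyma06g43600 at 1.68, 26.2 and 30.7 FPKM. In Pana drought they stood at 21.3, 38.4 and 43.1 FPKM and at 7.28, 23 and 36.5 FPKM. The run of 14 stood at 14.4, 5.3 and 1.4 FPKM in Pana controls and 20.1, 20.5 and 59.7 FPKM under drought. The run of 9 stood at 39.8, 17 and 9.8 FPKM and 18.4, 18.9 and 64.6 FPKM. The Pana controls were thus lower than the PI 567690 controls in all 3 runs, and no Pana sum under drought reached the PI 567690 controls. The sums themselves were not tested. In single gene models, the test of the difference between lines given below passed in 21 of 30, 12 of 14 and 7 of 9 members of these runs. It passed in 3.72% of all members. The runs were picked by their falls in PI 567690, which enter that test, so these counts are descriptions.

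Whether single gene models differed between the lines in their drought change was tested as the difference of the changes (PI 567690 minus Pana) over the 12 libraries. The test passed in 1151 of 30914 gene models (3.72%), 205 with a positive and 946 with a negative difference. Pana drought libraries 1 and 3 had 35.8% and 23.3% of their line-marking gene models at the level of PI 567690, so their place in the Pana group is uncertain. Without both, 672 passed, 61 positive and 611 negative. Without PI 567690 drought library 1, 68 passed. Leaving out PI 567690 control library 1, 2 or 3 gave 723, 369 and 255, and leaving out Pana control library 2 gave 402.

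Of the 18 named gene models, 4 passed this test. Glyma12g34570, which rose 5.82 on the log2 scale in PI 567690, stood at 489, 809 and 1413 FPKM in Pana controls and at 1124, 1864 and 532 FPKM in Pana drought (difference 5.49 ± 0.78 SE, adjusted p = 0.00956). The Pana groups overlapped, at levels far above those of PI 567690 controls. Glyma03g41330 and Glyma06g44640, near absent in droughted PI 567690, were at 0.0494 FPKM or less and 0.0615 FPKM or less in the Pana controls. Under drought their highest Pana values were 3.1 and 0.621 FPKM, both in library 3. Their differences were -6.87 ± 0.73 SE (adjusted p = 0.00453) and -6.26 ± 0.83 SE (adjusted p = 0.00693). Glyma17g37900 stood at 0.184, 0.142 and 0.0882 FPKM in Pana controls and at 0.255, 0.143 and 55.7 FPKM in Pana drought (difference -9.08 ± 1.76 SE, adjusted p = 0.0226). In these last 3, every Pana control library was below 0.5 FPKM, so a fall in Pana could hardly have been seen.

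Among the other 14 named gene models the difference did not pass, which does not show that the lines responded alike. Glyma05g03080, which rose in PI 567690, stood at 1.16, 1.26 and 0.698 FPKM in Pana controls and 146, 56.9 and 6.07 FPKM in Pana drought (difference 0.3 ± 1.23 SE, adjusted p = 0.929). Glyma05g05430 stood at 0, 0.177 and 0.24 FPKM and at 194, 140 and 0.116 FPKM in Pana drought. Glyma13g44020 stood at 0.69, 0.592 and 0.598 FPKM and at 468, 308 and 1.12 FPKM. In all 3, Pana drought library 3 was the lowest of the Pana drought libraries. The transcripts with the largest loss in PI 567690, Glyma19g06370 and Glyma19g06340, held 1050, 3982 and 17175 FPKM and 938, 3364 and 14288 FPKM in the Pana drought libraries.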

How the data were processed

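Leaf RNA of PI 567690 and Pana was sequenced on an Illumina instrument, per the labels and the design text. Cufflinks, Cuffdiff, TopHat 1.4.1 and FastQC are listed in the submitters' processing notes without their roles, and BWA in the design text. No genome build is given in the sources used here. The values the authors deposited were read as FPKM, computed by the authors relative to model length and mapped reads. The table does not name the unit, which was read from the values. FPKM is relative, so a few abundant transcripts that lose reads raise all others.

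Whole reads were recovered from the steps of the FPKM values for 30429 (72.8%) of 41770 gene models above 0 in at least 8 libraries, within 0.06 reads, and summed to 8642655 to 16626534 reads per PI 567690 library. These sums are lower bounds of the depth. Members were tested with limma 3.58.1 in R 4.3.3 on log2(FPKM + 1), with a trend on the mean level, Benjamini-Hochberg adjustment at 0.05 over all members, and 5 columns (3 controls, drought library 1 and the mean of drought libraries 2 and 3; residual degrees of freedom 3, prior 3.25). Adding 1 FPKM before the logarithm makes the fold changes of low gene models too small. The difference between lines used all 12 libraries. Line-marking gene models were read on log2(FPKM + 0.25).

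The named gene models were, in each of 5 rankings, up to 2 rises and 2 falls among calls above the median level (6.44 FPKM) with no overlap between groups. The rankings were log2 change, FPKM difference, adjusted p, near absence in a treatment, and drought library 1 against the others. Gene lists could not be applied without names. Members, lists and tests were chosen with earlier results of these data known. Of the fits, only the main one was run on simulated data, with few changed gene models and the spread of the controls in every column. It does not speak for the wider spread of the 2 drought columns (median SD 0.242 against 0.138 on the log2 scale). The alternatives were other scalings, pseudocounts, filters and thresholds, a replicate block, voom on recovered reads, other sets of libraries, and leaving out each library. Python 3.11.15, numpy 2.4.6, pandas 2.3.3, scipy 1.17.1 and matplotlib 3.10.9 were used.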

Additional observations from a re-analysis of the deposited data

Results flagged for a closer look

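Of the named gene models, 4 had drought changes that differed between PI 567690 and Pana by the test of the difference itself. The differences (PI 567690 minus Pana, log2 scale, limma) were 5.49 for Glyma12g34570, -6.87 for Glyma03g41330, -6.26 for Glyma06g44640 and -9.08 for Glyma17g37900. The last 3 were near absent in Pana controls. Pana drought libraries 1 and 3, which enter each difference, had 35.8% and 23.3% of their line-marking gene models at the level of PI 567690, and their part in the differences was not tested gene by gene.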

How the results depend on the processing

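The count of 12290 calls was 2314 with all 12 libraries in the fit and drought libraries 2 and 3 averaged, and 4223 with the 12 entered separately. Fewer gene models entered with a mean level limit of 5 FPKM (7648 calls of 18125 tested) and with voom on recovered reads (8189 of 20780). It was 3910 at an adjusted p under 0.01 and 6232 with at least 2-fold change. Leaving out 1 library gave 4746 to 12422. A replicate block with 6 libraries entered separately gave 12856 calls, and 14615 were made without the block. Deviations of same-numbered control and drought libraries correlated by 0.02, 0.03 and -0.04, and those of differently numbered ones by -0.05 to 0.06. Drought libraries 2 and 3 were nearly identical, so these correlations cannot decide whether the libraries were paired. Of 298 results of single named gene models under the alternatives, 259 kept their call and 0 reversed. The selection required no overlap between the groups, so a reversal could hardly occur. In each alternative run for them, 8 of the 18 gene models kept their call. With all 12 libraries entered separately the difference between lines passed in 1883 gene models, and without both Pana drought libraries 1 and 3, an alternative chosen after seeing the data, in 672. Leaving out 1 of the 12 libraries gave 68 to 1518. The longest run of falls, 30 as reported, was 15 without control library 2. It was another run, of 10 from Glyma12g03810, without control library 1, control library 3 or drought library 1, and in the fit with Pana the run of 9 from Glyma09g35510. Depth limits gene models near 1 FPKM, which rest on few reads.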
